A study of Mus musculus with 4 samples.

Results

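The array used for *Rap1*-deficient and wild-type liver carried 16194 probes that are named by a stretch of the mouse genome in place of a transcript accession, for example chr16:23992037-24001037 followed by the letter F. They were chosen by that name alone, with control spots left out, and made up 29.1% of the 55681 probes on the array. They covered 3543 distinct regions. Of the region probes, 8171 end in F and 8010 in R, read here as the forward and reverse strand, which the files do not spell out. Another 13 probes, of 3 regions, carry no letter. Probes of both letters were present for 1067 regions and probes of a single letter for 2473. A region and letter had between 1 and 10 probes, with a median of 3, and 690 of the 4610 names rested on 1 probe. The regions had a median length of 7304 bp and quartiles of 786 and 21807 bp. Many overlapped one another, and merging overlapping regions of either letter left 2226 separate stretches of the genome. Coordinates are those of the mm9 build, which the scan headers give.

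Livers came from mice of a C57BL6/129SV (90%:10%) background, aged 30 weeks by the labels, either Rap1 -/- or wild-type. The knockout is constitutive and whole-body, made according to the study by deleting a floxed allele with a Cre transgene active in the early embryo, so the deletion is not restricted to a liver cell type. Each of 4 two-colour arrays held 1 liver RNA of each genotype. On the 3 forward arrays the *Rap1*-deficient RNA was labelled with Cy5, and on the 4th, a dye swap numbered 1, with Cy3. The swap was taken as a repeat of pair 1 and averaged with forward array 1, so the test rests on 3 pairs. The study describes the animals at this stage as females and gives a slightly older age. It places them at the onset of obesity, with a higher mean body weight in *Rap1*-deficient than in wild-type animals. Every log2 ratio below is *Rap1*-deficient over wild type, with the sign of the swap turned.

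Long intergenic RNAs are transcripts made by RNA polymerase II from DNA between protein-coding genes, usually capped, spliced and polyadenylated but with no long reading frame. Many are transcribed weakly and in few tissues. A smaller number are abundant nuclear RNAs that bind chromatin regulators or build nuclear bodies. Arrays of this kind tile candidate regions with several probes per strand, because the transcript within a region was often unknown when the probes were designed. The sequences of the probes were not analysed here, so a region stands for the candidate from which probes were drawn and not for a defined transcript. Whether a region overlaps an annotated gene or another kind of RNA was not examined. In whole liver, fewer cells of a type and less RNA per cell cannot be told apart.

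Of the probes for *Terf2ip*, the gene of RAP1, A_52_P381806 gave log2 ratios of -1.74, -1.92 and -1.91 on forward arrays 1, 2 and 3 and -1.68 on the dye swap, and A_55_P2094079 gave 1.17, 1.07, 0.88 and 0.72. The files do not place either probe relative to the deleted part. The 7 hepatocyte marker genes found on the array (*Alb*, *Apoa1*, *Ttr* and others) were well above background in both genotypes on every array, at mean log2 intensities of 15.1 to 17.4. The 4 Kupffer cell markers differed between arrays, with mean log2 ratios of -0.65, 0.16 and 1.55 on the forward arrays and -0.41 on the swap. The 4 adipocyte markers were dim or not detected, at mean log2 intensities of 6.24 to 7.19, and had mean log2 ratios of 1.03, 0.18 and 0.06 on the forward arrays and 0.86 on the swap.

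Most of the region probes gave no clear signal in liver. A probe was kept for testing where it was well above background in at least 1 genotype on all 4 arrays. This held for 4990 of the 16194 region probes (30.8%), against 57% of the other probes. Both genotypes were well above background on every array for 4082 region probes. A further 618 reached this on every array in *Rap1*-deficient liver only and 290 in wild-type liver only. Over all tested probes of the array, 24846 of 27513 were well above background in both genotypes on every array. At the other end, 8742 region probes (54%) were not well above background on any array in either genotype. By array, 32.9%, 36.5%, 36.9% and 36.2% of region probes were well above background in *Rap1*-deficient liver on forward arrays 1, 2 and 3 and the swap, and 32.4%, 31.5%, 30.7% and 38.6% in wild-type liver. On every array the larger share was in the genotype labelled with Cy5. The same held for the other probes, with 61.8% in *Rap1*-deficient and 56.4% in wild-type liver on forward array 3, and 61.3% and 62.3% on the swap.

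The share detected was also low beside every other class of identifier large enough to compare. It was 64.2% for RefSeq messenger RNAs (NM_), 48.4% for RefSeq non-coding RNAs (NR_), 40.1% for predicted messenger RNAs (XM_) and 38.6% for Ensembl transcripts. Tested region probes were also dimmer. Their median log2 intensity, over both dyes and all arrays, was 7.15 with quartiles of 6.75 and 8.03, against a median of 8.75 for NM_ and 7.74 for NR_ probes. Median levels of the tested region probes by genotype and array lay between 7.13 and 7.22. Those that were not tested had median levels of 6.10 to 6.11, close to the offset of 50 intensity units (added before the log) that sets the bottom of this scale. Ratios of dim probes are pulled toward 0 by that offset.

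**Figure D1:**
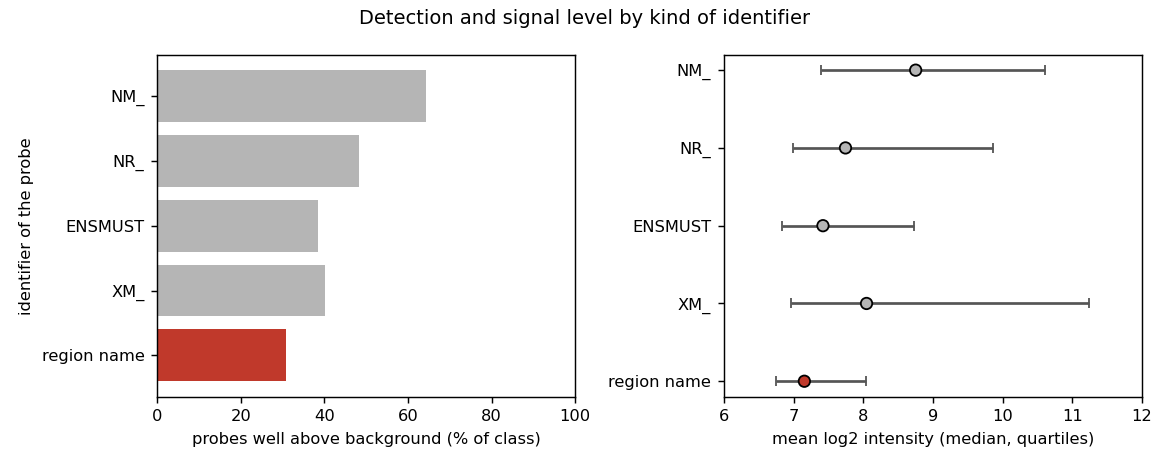
Left, share of probes well above background on all 4 arrays in at least 1 genotype, by kind of identifier. Right, mean log2 intensity of those probes, as a dot for the median and bars for the quartiles. Probes with region names have the smallest share, 30.8%, and the lowest median, 7.15.

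Detection was scattered within regions. Of 4610 names, 2698 (58.5%) had at least 1 tested probe. Among the 3920 names with at least 2 probes, all probes were tested for 353, some for 2107 and none for 1460. Detection differed little by strand or length. Of the F probes 29.6% were tested and of the R probes 32%, and 4 equal groups by region length, from shortest to longest, gave 29%, 32%, 31.4% and 30.8%. By chromosome the share ran from 25.1% on chromosomes 13 and X to 37.4% on chromosome 17.

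The 8 brightest region probes had mean log2 intensities between 14.9 and 15.8. The brightest, A_30_P01031754 of chr19:5801802-5802597 (R), is described below. Next were A_30_P01022075 and A_30_P01025369 of chr17:17481706-17482457 (R), with log2 fold changes of 0.10 and 0.16 and adjusted p = 0.44 and 0.24 by limma. A_30_P01020306 of chr14:22267795-22319045 (F) was at 0.10, A_30_P01026458 of chr11:22681800-22707775 (R) at -0.10 and A_30_P01021065 of chrX:138967807-138968413 (R) at 0.23, and none of these 3 passed the test (adjusted p = 0.44, 0.43 and 0.19 by limma). The remaining 2 passed it. A_30_P01020570 of chr12:73838608-73862621 (F) had ratios of 2.05, 2.34 and 2.36 on the forward arrays and -0.64 on the swap, and A_30_P01020015 of chr17:39982023-39983277 (F) 1.47, 1.67, 1.28 and -0.29. Both of these were on opposite sides of 0 in the 2 dye orientations. So 5 of the 8 brightest probes did not pass the test, and the swap was within 0.15 of 0 for all 5.

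Between genotypes, 1504 of the 4990 tested region probes (30.1%) were called by limma at a false discovery rate under 0.15 (Benjamini-Hochberg over 27513 tested probes of all kinds). Over all tested probes the share was 34.5%, so the region probes were called about as often as the rest of the array. Called higher in *Rap1*-deficient liver were 998 (20%), against 20.8% of all tested probes, and called lower were 506 (10.1%), against 13.7%. The median log2 fold change was 0.03 over the region probes and 0.03 over all tested probes. Median centring in place of loess moved the median of all tested probes to 0.17 and the split to 1007 higher and 95 lower. Agilent's processed signals gave 994 and 950, and the table of log2 ratios from the authors gave 795 and 734. The number called lower therefore depended on how the arrays were scaled.

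The dye swap went against the forward arrays for most of these calls. Across tested region probes, forward arrays correlated with each other at Pearson r = 0.82 to 0.91, while each correlated with the sign-turned swap at -0.44. The other tested probes gave 0.61 to 0.83 and -0.20 to -0.26, and all tested probes together -0.24 to -0.29. These are correlations over probes that share an array, and probes are not replicates. The spread was also smaller on the swap, with an SD of 0.21 against 0.46 to 0.52 on the forward arrays. Of the 998 region probes called higher, 992 were above 0 on all 3 forward arrays but 215 (21.5%) were above 0 on the swap. Of the 506 called lower, 503 were below 0 on all 3 forward arrays and 224 (44.3%) were below 0 on the swap. For the other probes the shares with the same sign on the swap were 32.4% and 45%. The remaining 783 region probes called higher had a brighter Cy5 channel on the swap too, where Cy5 held the wild-type RNA.

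**Figure D2:**
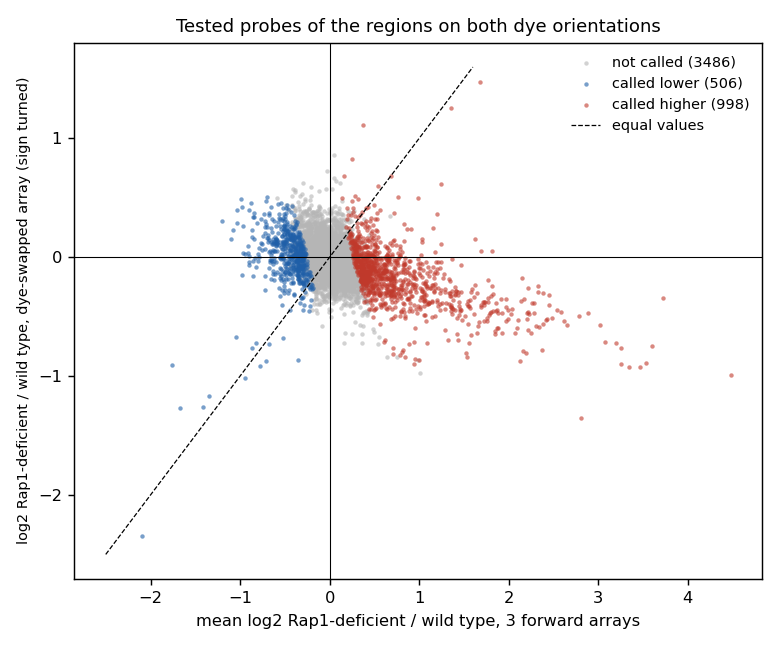
Each point is one of the 4990 tested region probes, with the mean log2 ratio of the 3 forward arrays on the x axis and the sign-turned ratio of the dye-swapped array on the y axis. Most probes called higher (998, red) lie below the zero line of the swap, and few points at either end follow the dashed line of equal values.

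The contrast between orientations was largest for bright probes. With the tested region probes split into 5 equal groups by mean intensity, the share called higher was 9.12%, 13.4%, 15.1%, 23.7% and 38.6% from the dimmest to the brightest. In the same order, 42.9%, 26.9%, 24.5%, 18.6% and 15.3% of those called higher were above 0 on the swap. The correlation of the swap with forward array 1 was -0.11 in the dimmest group and -0.52 in the brightest. Among region probes with a log2 fold change of at least 1, 9 of 157 were above 0 on the swap, against 77 of 439 other probes. All 5 region probes at or below -1 were below 0 on it, as were 63 of 70 other probes.

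Calls that had 1 sign on all 4 arrays were 209 higher (4.19% of tested region probes, against 6.05% of all tested probes) and 221 lower (4.43%, against 6.01%). With the dye effect fitted as a term over the 4 arrays, 307 region probes were called (6.15%, against 6.7% of all tested probes), and 302 of them were among the 1504. The swap is the only array of its orientation, so the fit with a dye term took its spread from the 3 forward arrays alone. That fit also counted the swap apart from pair 1. With the swap counted as a replicate of its own, 9 were called (0.18%, against 0.302%). Leaving out 1 pair also mattered. Without replicate 1, which takes out forward array 1 and the swap together, 2001 region probes were called. Leaving out the swap alone gave 2471. With the swap kept in pair 1, 477 were called without replicate 3. Without replicate 2, 1 was called (A_30_P01019266, below), while 654 then had an unadjusted p under 0.05.

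The 6 largest fold changes among calls of 1 sign in all 3 pairs were increases that the swap did not share. A_30_P01024724 of chr13:73472571-73483846 (R) had log2 ratios of 4.60, 4.79 and 4.07 on the forward arrays and -0.99 on the swap. Its log2 level was 15.24, 15.46 and 14.80 in *Rap1*-deficient and 10.64, 10.68 and 10.73 in wild-type liver on the forward arrays, and 12.28 against 13.27 on the swap, so the channels that held Cy5 were the brighter ones throughout. The fitted log2 fold change was 3.55 ± 0.55 (SE, n = 3 pairs; adjusted p = 0.040, limma) and 1.75 with a dye term. A_30_P01032670 of chr5:22801058-22939737 (F) followed with a fold change of 3.01 and a swap ratio of -0.34. A_30_P01022987 of chr7:50509139-50526856 (R) had 2.82 and -0.75. A_30_P01028612 of chrX:138966975-138981525 (F) had 2.72 and -0.89. A_30_P01022304 of chr4:131905739-131910814 (F) had 2.72 and -0.92, and A_30_P01018039 of chr16:8738782-8830148 (R) 2.59 and -0.92. All 6 were above 0 on each forward array and below 0 on the swap.

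Other probes of these 6 names mostly did not move with them. Of 15 further tested probes, 4 were called higher, 3 lower and 8 neither. The chromosome 13 name had 2 further tested probes, A_30_P01020630 at -0.08 and A_30_P01020909 at -0.21, neither of which passed the test. In the chromosome 5 name, A_30_P01020305 was at -0.07 and A_30_P01028932 at 0.21, again not past the threshold. In the chromosome 7 name, A_30_P01029734 fell by 0.92, with ratios of -1.40, -1.19 and -1.03 on the forward arrays and 0.30 on the swap. The chromosome X name had 2 more increases, A_30_P01026358 at 1.96 and A_30_P01030954 at 1.39, with swap ratios of -0.45 and -0.60, beside A_30_P01029640, called lower at -0.30, and A_30_P01018064 at -0.10, not past the threshold. The chromosome 16 name had 1 more, A_30_P01033575, at 1.79 with -0.38 on the swap. Fold changes thus differed in size and in sign within these candidate regions.

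Decreases shared by both dye orientations were led by A_30_P01019266 of chr6:35201798-35217831 (F). Its log2 ratios were -1.93, -2.11 and -2.23 on the forward arrays and -2.35 on the swap. The log2 level was 8.64, 8.65 and 8.48 in wild-type liver on the forward arrays and 9.06 on the swap, and 6.71, 6.53, 6.24 and 6.71 in *Rap1*-deficient liver. The genotypes did not overlap. The fold change of -2.16 ± 0.083 (SE, n = 3 pairs) had an adjusted p of 0.0048 by limma, the smallest among region probes, and the call was kept under each of the 12 other settings tried, the highest adjusted p being 0.10, without replicate 2. The other tested F probe of the region, A_30_P01018280, was lower as well, at -0.43, -0.25 and -0.37 on the forward arrays and -0.87 on the swap. Probes on the R strand of the same 16034 bp went the other way. All 5 tested R probes were called higher, with fold changes of 0.44 to 1.49, and 4 of the 5 were above 0 on the swap, at 0.04 to 0.16. The brightest R probe, A_30_P01028314, had 1.84, 1.91 and 1.86 on the forward arrays and -0.44 on the swap.

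The short region chr10:94870971-94871658 (R), of 688 bp, had 3 probes, all called lower and below 0 on every array. A_30_P01027314 had ratios of -1.28, -2.02 and -1.69 on the forward arrays and -1.27 on the swap (-1.66 ± 0.15, SE, n = 3 pairs; adjusted p = 0.033, limma). A_30_P01024852 had -1.501, -2.204, -1.574 and -0.904, with the same fitted fold change of -1.66. The third, A_30_P01026073, was at -0.26, -0.28, -0.16 and -0.45. Its decrease was smaller than that of its neighbours on every array.

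The region with the most called probes below 0 on both dye orientations was chr16:23992037-24001037 (F), of 9001 bp. It has 7 probes, of which 6 were tested and 5 called lower. A_30_P01020303 had log2 ratios of -1.38, -2.11 and -0.75 on the forward arrays and -1.26 on the swap, and its wild-type level of 9.34 to 9.57 lay above its *Rap1*-deficient level of 7.42 to 8.68 on every array. A_30_P01022030 had a fold change of -1.34, A_30_P01024256 of -0.96, A_30_P01033600 of -0.82 and A_30_P01021853 of -0.75. On the swap these 5 lay between -0.87 and -1.26, and in all 5 the decrease was larger on forward array 2 than on arrays 1 and 3. A_30_P01021475 was at -0.16 and did not pass the test. The 3 tested R probes of the region were at -0.17, -0.02 and 0.02, none past the threshold.

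Smaller decreases of the same kind were measured in further regions. In chr2:52241435-52245307 (F), A_30_P01025928 and A_30_P01033485 were at -0.93 and -0.76, with swap ratios of -0.67 and -0.72. In chr15:58985008-58985429 (F), A_30_P01018928 and A_30_P01029443 were at -0.89 and -0.67, with -0.76 and -0.73 on the swap. Both were tested only because 1 genotype was well above background on every array, so their decrease is not independent of that filter. A_30_P01029443 was well above background on every array in wild-type liver and on none in *Rap1*-deficient liver. Its mean level over the arrays was at least 1.58-fold lower in the latter. This bound uses, on each array, the lowest signal well above background or the dim signal itself, whichever is higher. Such a bound applies to the mean, and a single array can fall short of it. A_30_P01032937 of chr1:74084292-74138492 (F) was at -0.77 and A_30_P01026163 of chr16:86770170-86874921 (R) at -0.75, but with -0.15 and -0.03 on the swap they barely left 0 there.

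Increases shared by both orientations were largest in chr9:78107225-78118850 (F). A_30_P01018914 had log2 ratios of 0.39, 1.52 and 3.12 on forward arrays 1, 2 and 3 and 1.47 on the swap. Its wild-type level was 8.84, 8.87 and 8.80 on the forward arrays and 8.57 on the swap, while the *Rap1*-deficient level was 9.23, 10.39, 11.93 and 10.04, so the spread lay among the *Rap1*-deficient livers. The fold change was 1.86 ± 0.40 (SE, n = 3 pairs; adjusted p = 0.050, limma), and it was 1.57 with adjusted p = 0.20 when a dye term was fitted, which ended the call. A_30_P01028766 of the same name had 0.39, 1.29, 2.39 and 1.26. The R strand of this region held A_30_P01019873, well above background on every array in *Rap1*-deficient and on none in wild-type liver. Its ratios were 0.23, 0.18, 0.23 and 0.25, and its mean level was at least 1.16-fold higher. Kupffer cell markers also had their highest ratios on forward array 3, as given above, but were below 0 on the swap, and their part in this result was not tested.

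The 3 probes of chr19:5801802-5802597 (R) were among the brightest of all region probes and were called higher. A_30_P01031754 had log2 ratios of 1.52, 1.70 and 1.86 on the forward arrays and 0.05 on the swap, A_30_P01028215 had 1.76, 1.79, 1.90 and 0.05, and A_30_P01021970 had 1.496, 1.641, 1.730 and 0.15. The level of A_30_P01031754 was 16.53 to 16.62 in *Rap1*-deficient and 14.76 to 15.01 in wild-type liver on the forward arrays, and 16.02 against 15.97 on the swap. The swap therefore showed next to no difference where the forward arrays showed a large one. With a dye term the fold changes of the 3 probes were 0.87, 0.93 and 0.89, from 1.45, 1.53 and 1.40 without it.

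In chr6:122741562-122743423 (R) all 3 probes were clearly above 0 on the swap. A_30_P01018332 had 1.52, 1.38 and 0.82 on the forward arrays and 0.62 on the swap (1.09 ± 0.13, SE, n = 3 pairs; adjusted p = 0.040, limma). A_30_P01019987 had 0.84, 0.89, 0.32 and 0.68, and A_30_P01033408 0.50, 0.56, 0.05 and 1.11. Other increases in both orientations were A_30_P01018681 of chr5:125861675-125880125 (F), with 1.21, 1.36, 1.04 and 0.36, and A_30_P01022910 of chr1:85304494-85305390 (R), with 0.53, 1.01, 1.94 and 0.24. A_30_P01030969 of chr1:175660642-175671878 (R) had 1.03, 0.52, 1.41 and 0.50. A_30_P01030493 of chr10:39659425-39674200 (F) had 0.92, 1.97, 0.18 and 0.02, and the other 4 probes of its name were not tested. Of the 24 probes named here by their size among calls shared by the 3 pairs and the swap, 19 were called with a dye term, 7 with the swap as its own replicate and 1 without replicate 2.

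**Figure D3:**
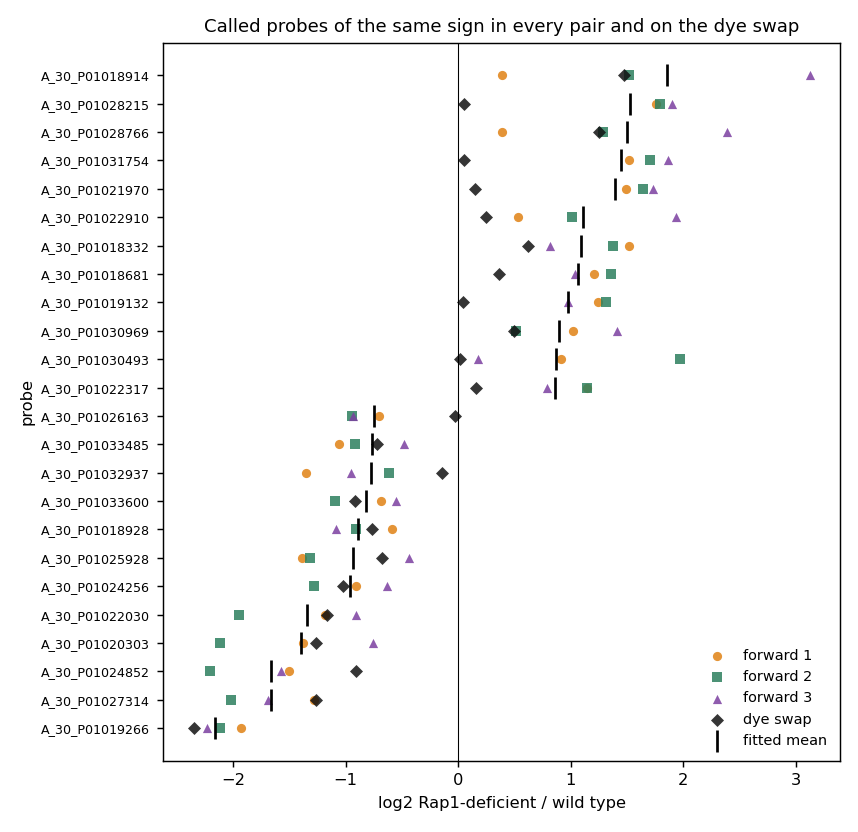
Log2 *Rap1*-deficient over wild type on each array for the 12 largest increases and 12 largest decreases that were called and had the same sign in every pair and on the dye swap, those on chromosome 18 left out. Black diamonds are the swap and vertical ticks the fitted mean. Of the 12 decreases 10 have a swap value under -0.6, and 6 of the 12 increases have one under 0.2.

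**Figure D4:**
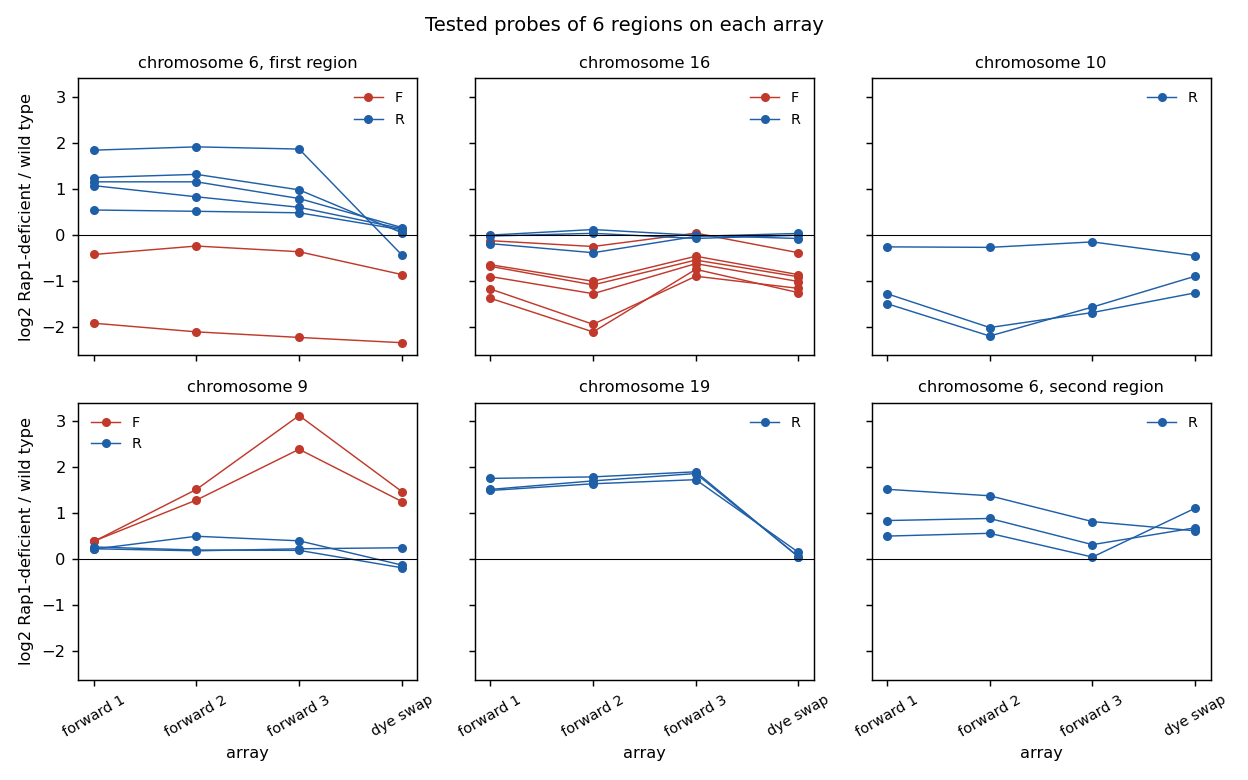
Log2 ratio of every tested probe of 6 regions on the 3 forward arrays and the dye swap, with 1 line per probe, F in red and R in blue. F and R probes of the first chromosome 6 region lie on opposite sides of 0 on the forward arrays, and the chromosome 19 probes fall to between 0.05 and 0.15 on the swap.

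Taking probes of a name together, 1223 names had at least 2 tested probes. In 630 of them (51.5%) every tested probe had a fold change of the same sign, and on the swap alone this held for 558 (45.6%). The range of log2 fold changes within a name had a median of 0.25, and it exceeded 1 in 85 names. At least 2 probes were called in 274 names. These calls were all higher in 162, all lower in 70 and in both directions in 42. In 108 names every tested probe was called the same way, 72 higher and 36 lower, and in 15 of the 108 every tested probe also had that sign on all 4 arrays. Of these 15 names 6 were higher and 9 lower. Beside those described above, they included chr1:52507332-52514490 (R), whose 3 tested probes were at -0.38 to -0.52, with -0.12 to -0.40 on the swap. They also included chr14:115443612-115445950 (F), with 3 probes at -0.47 to -0.50, and chr4:149445201-149445902 (F), with 3 probes at 0.27 to 0.51 and 0.32 to 0.44 on the swap. Neighbours of a call were counted by whether the swap shared its sign, and the differences were not tested. Of called probes with another tested probe of the name, all others had the same sign for 65.7% of increases shared by the swap and 58.2% of those not shared, and for 61.2% and 61.1% of decreases. Another probe of the name was called the same way for 61.2% and 60.9% of these increases and for 56.5% and 49.5% of these decreases. Probes of 1 name share their arrays and may share a transcript, so they are not replicates. No such counts over other genes with several probes are given here. The counts by name are therefore not read as a trait of the region probes.

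The 10 names with the most tested probes held 90, of which 30 were called higher and 6 lower (40%, against 34.5% of all tested probes). All 10 probes of chr17:26911397-26917047 (F) were above 0, at 0.12 to 0.39, and 7 were called higher, with swap ratios of -0.40 to 0.10. All 10 of chr4:129497990-129515290 (F) were below 0 on the swap, at -0.05 to -0.36, and 2 were called higher. The 77051 bp region chr19:5771425-5848475 contains the chromosome 19 region above, whose probes are R. Of its 9 tested F probes, 5 were called higher, and fold changes ran from -0.03 to 1.18. The 1 tested R probe under the wider name was called lower, at -0.36, with 0.20 on the swap. In chr6:129151512-129208737 (R) 3 of 8 were called lower, at a median of -0.16, with swap ratios of -0.37 to 0.73. In chr5:74487385-74497428 (F) 3 of 9 were called higher and fold changes reached 1.34, and in chr5:33174092-33200792 (R) 2 of 9 were, with a highest fold change of 1.06 and every swap ratio below 0. The median fold change of the 10 names lay between -0.16 and 0.38.

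F and R probes were called in similar shares. Of 2421 tested F probes, 503 were higher and 256 lower, and of 2564 tested R probes, 494 were higher and 250 lower. In 515 regions both strands had tested probes. The medians of the F and R probes had the same sign in 260 of these regions and opposite signs in 255. In 58 regions calls on both strands went 1 way, 50 higher and 8 lower, and in 45 the strands were called in opposite directions. The chr6:35201798-35217831 region had the widest gap of the latter, with medians of -1.29 on F and 0.86 on R, followed by chr12:110003268-110030953, with 1.36 on F and -0.31 on R. Among the 8 brightest regions with both strands, chr17:39960567-39992817 had all 4 F and all 5 R probes called higher, at medians of 1.25 and 1.16, and both medians were below 0 on the swap, at -0.43 and -0.41. In chr12:119825125-119850750, chr17:71242333-71273533 and chr17:32035750-32056000 no probe of either strand was called. In chr2:167085700-167117795 the F probe was called higher, at 0.32, and the R probe lower, at -0.24.

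**Figure D5:**
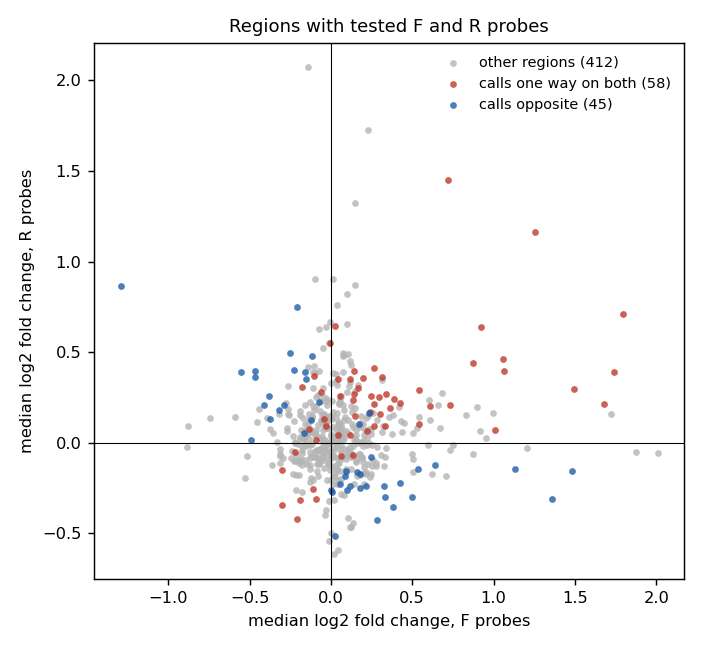
Median log2 fold change of the F probes (x axis) and the R probes (y axis) of the 515 regions with tested probes on both strands. Red points have calls in 1 direction on both strands (58) and blue points calls in opposite directions (45). The medians have the same sign in 260 regions and opposite signs in 255.

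By chromosome, 16 was the one of 20 with more probes called lower than higher, at 47 and 36 of 196 tested, and 25 of the 47 were below 0 on the swap. Its 5 calls in chr16:23992037-24001037 and 3 in chr16:23534663-23535172 (F), at -0.37 to -0.56, were among them. The share called higher ran from 13.5% on chromosome 1 to 27% on chromosome 19. In the 4 groups by region length it was 18%, 20.2%, 19.1% and 22.7% from shortest to longest, and the share called lower was 11.4%, 9.93%, 10.1% and 9.22%.

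A last set of region probes passed the background threshold on each array in a single genotype and on none in the other. There were 20, with 15 in *Rap1*-deficient and 5 in wild-type liver. *Rap1*-deficient RNA held Cy5, the dye with the larger share detected, on all arrays but the swap. No such count over the other probes is given here, so the split is not read as a trait of the region probes. Of the 15, A_30_P01017437 of chr12:81221532-81232030 (F) had the largest fold change, 0.84, with ratios of 2.18, 1.10 and 0.34 on the forward arrays and -0.04 on the swap, and a level at least 1.72-fold higher. A_30_P01027010 of chr17:29183003-29217681 (R) was at 0.48, A_30_P01018187 of chr15:59130091-59131239 (R) at 0.45 and A_30_P01025181 of chr7:67119535-67120213 (R) at 0.43, each above 0 on all 4 arrays. In wild-type liver only, beside A_30_P01029443, A_30_P01026923 of chr3:121627545-121639470 (R) was at -0.29 and A_30_P01027156 of chr16:90008636-90015586 (F) at -0.25. All 20 lay near the detection limit, at mean log2 intensities of 6.32 to 6.79, and the bounds of the 19 that had one were between 1.04 and 1.72.

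For comparison, long non-coding RNAs with established names were measured on the same arrays. From a list of 46 such genes, 28 had probes here, found by accession or by the name in the file, and 50 of their 74 probes, of 23 genes, were tested. Of the 50, 23 were called higher (46%, against 20.8% of all tested probes), 15 lower (30%, against 13.7%) and 12 neither, at a median log2 fold change of 0.22, against 0.03 over all tested probes, and 28 of the 38 calls had 1 sign on all 4 arrays. *Xist*, *Neat1* and *Tug1* account for 21 of the 50 probes, all of them called, and 17 of the other 29 were called. *Xist* RNA coats the inactive X chromosome of female cells. All 5 probes named XIST were called higher, at 0.70 to 0.97, and 0.35 to 0.56 on the swap. Of the *Xist* probes assigned by accession, A_52_P113537 was called higher at 0.36 with 0.05 on the swap, and A_52_P300376 had 1.69, 1.97 and 1.93 on the forward arrays but -0.56 on the swap. All 5 probes named NEAT1, the RNA on which paraspeckles assemble, were higher as well, at 0.35 to 0.56, with 0.28 to 0.42 on the swap. All 5 probes named TUG1, a nuclear RNA linked to Polycomb repression, were lower, at -0.39 to -0.54, with swap ratios of -0.01 to -0.18, although A_55_P2123716, assigned to *Tug1* by accession, was called higher at 0.78 with -0.33 on the swap. The 3 probes named NEAT2, another name of *Malat1*, an abundant RNA of nuclear speckles, were lower at -0.36 to -0.41, with 0.18, -0.05 and 0.05 on the swap. Probes of other names did not share 1 direction. Those named KCNQ1ot1, an RNA of an imprinted cluster, were called at -0.35 (A_30_P01026203, 0.34 on the swap) and 0.53 (A_30_P01026714, 0.32 on the swap). Assigned to *Kcnq1ot1* by accession, A_55_P2196922 and A_55_P2408415 were called higher at 0.28 and 0.22, with 0.27 and 0.32 on the swap. Those named HOTAIR were called at 0.25 (A_30_P01022414, -0.19 on the swap) and -0.36 (A_30_P01029786, -0.09 on the swap). Both HOTAIR probes were dim, at mean log2 intensities of 6.67 and 6.64, and each passed the background threshold on every array in 1 genotype only. The 2 tested probes named H19 did not pass the test, and A_30_P01025068 was at -0.14, 0.12 and 2.14 on the forward arrays and -0.04 on the swap. The difference between named RNAs and region probes was not tested. Regions were not placed relative to these genes, so some region probes may measure the same RNAs.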

How the data were processed

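The authors deposited 4 two-colour scans as spot intensities (Agilent Feature Extraction 10.7.3.1 by the headers, another version in the study's methods), with processed intensities, well-above-background flags and log10 ratios, and a table of log2 ratios that the submitters' processing notes credit to limma. All arrays were on 1 slide. Median intensities were background-corrected (normexp, offset 50) and loess-normalized in limma 3.58.1 (R 4.3.3), control spots at weight 0 and outlier spots left out. Levels are channel values after Aquantile normalization. The deposited log10 ratio served only to find the direction of the log2 table, whose dye-swap column was already turned. Tested probes had 4 values and the flag on all 4 arrays in at least 1 genotype (27513 of 55681). The fit was an intercept over 3 pairs with eBayes, checked on simulated data. These had independent noise and no dye effect, so the check does not bear on calls that the swap did not share. Nothing says whether pairs are separate animals beyond their labels, so p-values measure the spread between these samples.

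The members, lists and rules were chosen with earlier results of these data known. Named were the 12 largest called increases and decreases of 1 sign in all pairs and on the swap, the 6 largest each way whatever the swap, the 8 brightest, the 10 names with most tested probes, the 8 brightest regions with both strands, and probes detected in 1 genotype only. Other probes of those names, and regions whose tested probes all went 1 way, were added after values were seen. Region probes on chromosome 18 (571) were counted and not named. Non-coding genes and markers were matched by RefSeq accession (GRCm38.p6 table, names only). No probe sequence was analysed here. No depth applies to arrays, whose number limits the precision.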

Additional observations from a re-analysis of the deposited data

How the results depend on the processing

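The number of region probes called (1504; 998 higher, 506 lower) and of all tested probes called (9488) was recomputed under other settings. Leaving out the dye swap gave 2471 (1524, 947) and 14496, and a false discovery rate under 0.05 gave 431 (338, 93) and 2495. A dye term gave 307 (246, 61) and 1844, and the swap as its own replicate 9 (1, 8) and 83, with 878 region probes then at an unadjusted p under 0.05. Leaving out 1 replicate, together with the swap in the case of replicate 1, gave 1 to 2001 (higher 0 to 1281, lower 1 to 720) and 7 to 12596. The lower calls were 950 with Agilent's processed signals and 95 with median centring. No background correction, no filter on dim probes, the stricter filter and the authors' value table kept these counts within 1.5 times. The share of region probes well above background, 30.8%, was 46% where 1 array was enough and 25.2% where both genotypes were required. Names whose tested probes shared 1 direction, 630, ranged from 558 on the swap to 635 on forward array 2, and 717 names had a median above 0, or 730 by the brightest probe. None of the 57 probes followed through every setting that could be fitted had a reversed call. Of the 44 that were called, 43 lost the call without replicate 2, 36 with the swap as its own replicate and 13 with a dye term. Each array pairs the genotypes, so the fit is paired by design and no further replicate block was fitted. The causes were not tested. Ratios of probes near background understate a difference.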
